A study of Mus musculus with 7 samples.

Results

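The levels of 9 interferon regulatory factor (IRF) and STAT genes were read from RNA sequencing of progenitors of mouse fetal liver: Irf1, Irf2, Irf3, Irf5, Irf7, Irf8, Irf9, Stat2 and Stat3. They were taken by gene symbol, and all 9 were found among the 22680 genes of the expression table. All 7 libraries came from C57BL/6 fetuses aged 13.5 d.p.c. They were 3 libraries of Uhrf1-/- LSK cells, 3 of wild-type LSK cells and 1 of wild-type LK cells. LSK cells (lineage-negative, Sca-1 and c-Kit positive) are the fraction in which stem cells are found. LK cells, which lack Sca-1, are mostly committed myeloid and erythroid progenitors. Uhrf1 encodes the protein that guides the maintenance DNA methyltransferase to newly copied DNA. The sources used here do not say how the deletion was made or whether livers were pooled. Nor do they say that libraries of a group came from separate animals, so the spread behind each p-value may be technical.

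Type I interferon binds its receptor and activates JAK kinases, which phosphorylate STAT proteins. STAT2 joins a partner STAT and IRF9 in the complex ISGF3, which binds the interferon-stimulated response element of target genes. IRF3, IRF5 and IRF7 act on the other side of the loop: sensors of foreign or misplaced nucleic acid activate them, and they switch on interferon genes. Irf7 is itself a target of ISGF3 and so amplifies the response. IRF1 activates and IRF2 competes for the same sites. In blood formation IRF8 drives monocyte and dendritic cell fates, and STAT3 carries signals of interleukin-6 family cytokines and granulocyte colony-stimulating factor.

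Levels are given as FPKM, a read level scaled to transcript length and library size, as the authors deposited them. The deposited count columns sum to between 15556959 and 21017402 per library. They are scaled by an unstated factor, so the depth in reads is not known and no counting interval is given. Uhrf1 went with its label at 10.2, 8.78 and 18.6 FPKM in Uhrf1-/- LSK libraries, against 63.0, 66.8 and 112.8 FPKM in wild-type LSK libraries. Ly6a, which encodes Sca-1, was 36.9 to 96.4 FPKM in Uhrf1-/- LSK, 26.4 to 56.8 FPKM in wild-type LSK and 0.321 FPKM in the LK library. Kit, for c-Kit, was 24.4 to 27.9 FPKM in Uhrf1-/- LSK, 29.0 to 56.6 FPKM in wild-type LSK and 30.5 FPKM in the LK library, and Cd34 was 134.2 to 162.2, 193.6 to 361.0 and 94.6 FPKM. Neither overlapped between genotypes and neither passed. Of the 6 markers of these fractions 5 had a log2 fold change below 0 (median -0.52), as did 53.9% of all genes tested. Flt3 was called lower with the replicate number as a block, as were 0.83% of all genes. Replicate 3 stood apart in both genotypes. A list of 14 immediate-early genes, which respond within minutes to handling, summed to 185.3 FPKM in Uhrf1-/- and 126.9 FPKM in wild-type replicate 3, and to between 1471 and 2018 FPKM in replicates 1 and 2.

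Irf7 showed the largest difference of the 9 between genotypes, and passed the test with the replicate number as a block but not without it. It was about 3.32 times as abundant in Uhrf1-/- as in wild-type LSK cells, while Irf8 was lower in each pair of libraries without passing the test and the other 7 members overlapped between genotypes. Over 10608 genes tested with limma on log2(FPKM + 1), 0 members were called higher at an adjusted p under 0.05, against 0.113% of all genes, and 0 were called lower, against 0.0566%. In either direction the share of all genes was 0.17%. At an unadjusted p under 0.05 there were 2 members, Irf7 and Irf8, against 5.57% of all genes. With the replicate number as a block, 1 member, Irf7, was called higher, against 1.23% of all genes, and 0 were called lower, against 0.83%, or 2.06% of all genes in either direction. Irf8 was again the second at an unadjusted p under 0.05, where the share of all genes was 12%. The median log2 fold change of the 9 members was 0.13, beside -0.03 over all genes tested, and 5 members had a positive value.

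**Figure D1:**
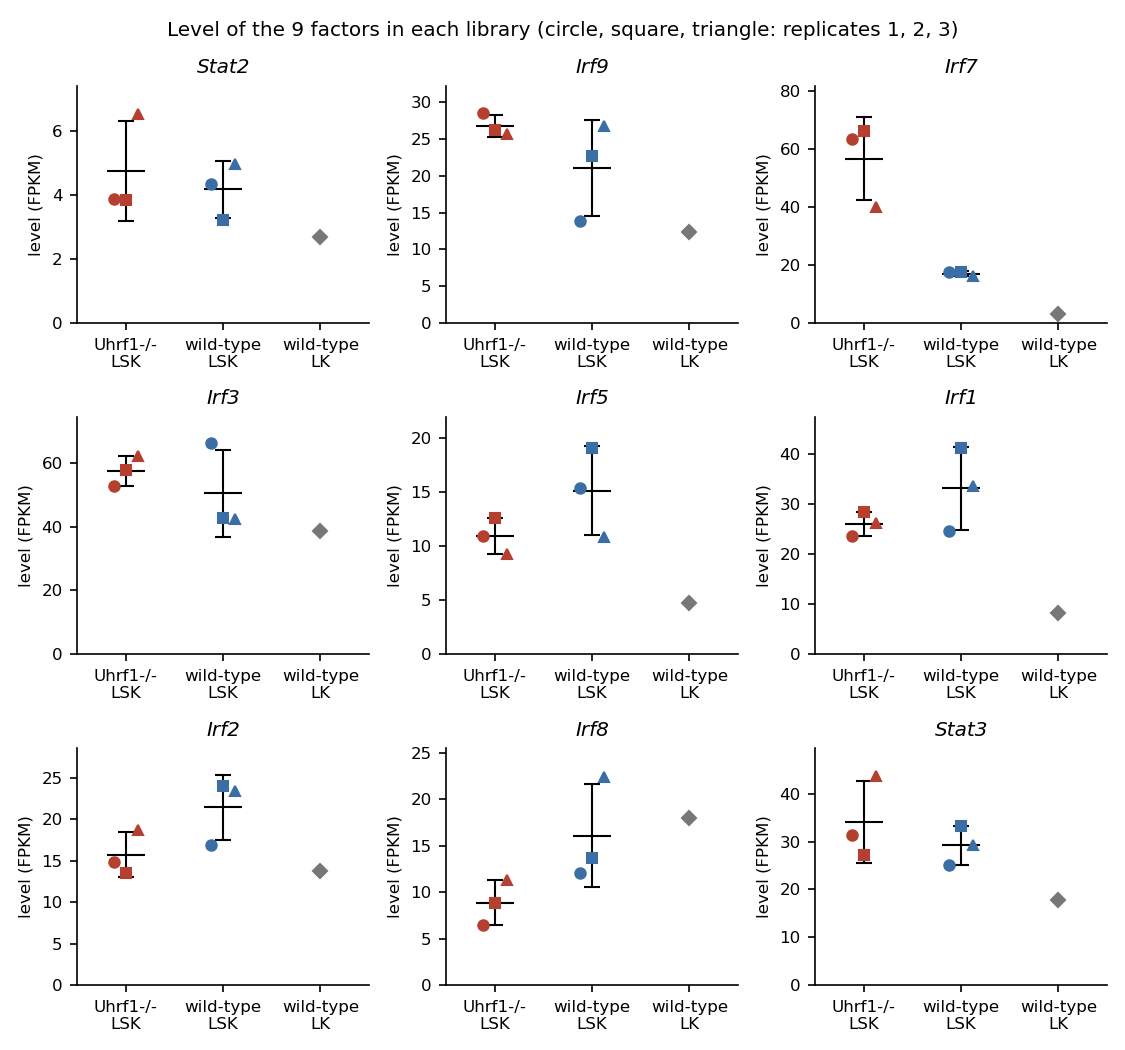
Level in FPKM of each of the 9 factors by library, with Uhrf1-/- LSK, wild-type LSK and the LK library from left to right. Symbols are libraries (circle, square and triangle for replicates 1, 2 and 3) and bars are the mean with SD of 3 libraries. Irf7 stands above 40 FPKM in all Uhrf1-/- libraries and at 17.5 FPKM or lower in the others.

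Irf7 (Entrez gene 54123; chromosome 7, 141263183 to 141266499 of GRCm38, a protein-coding gene) encodes the factor that amplifies interferon production. It stood at 63.3, 66.1 and 40.1 FPKM in Uhrf1-/- LSK, at 17.4, 17.5 and 16.2 FPKM in wild-type LSK, and at 2.95 FPKM in the LK library. The genotypes did not overlap, and the wild-type libraries lay close together while Uhrf1-/- replicate 3 was lower than the other two. The means were 56.5 ± 14.3 FPKM in Uhrf1-/- and 17.0 ± 0.749 FPKM in wild-type cells (SD, n = 3 each). The log2 fold change was 1.64 (SE 0.27), the 34th highest of the genes tested, with a limma adjusted p of 0.053. Ranges without overlap make every pair higher, here by 1.80, 1.86 and 1.26 on the log2 scale in the 3 pairs. The limma adjusted p with the replicate block was 0.000566. Without pair 2 the blocked adjusted p was 0.074, and 0 members were called, against 0.123% of all genes called higher and 0.0754% called lower. Leaving out any 1 library put the unblocked value between 0.057 and 0.242. In these bulk libraries a larger number of Irf7-expressing cells and more Irf7 RNA per cell cannot be told apart.

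Irf7 also stood higher relative to Irf3, its close relative in interferon induction. The ratio of Irf7 to Irf3, each per length, was 1.199, 1.145 and 0.645 in Uhrf1-/- LSK, 0.263, 0.408 and 0.381 in wild-type LSK and 0.0763 in the LK library. Such a ratio within a library does not depend on scaling between libraries. The genotypes did not overlap, and the two-sided exact permutation p was 0.1, the smallest that 3 against 3 libraries can give. The ratios of Irf7 to Irf9 and of Irf8 to Irf3 gave that p too. Irf7 itself did not overlap between genotypes, so its ratio is no independent test. Irf7 made up 26.8%, 27.1% and 16.5% of the summed level of the 9 factors in Uhrf1-/- LSK, 8.90%, 8.05% and 7.71% in wild-type LSK and 2.47% in the LK library.

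The annotated Irf7 start has fewer CpG dinucleotides, the sites whose methylation Uhrf1 maintains, than most starts of the other members. RefSeq gives 12 start windows for the 9 genes on GRCm38.p6, each of 250 bases before and 50 after a transcript start. The Irf7 window holds 7 CpGs, which is also the median of all 32851 windows. The windows of Irf1 hold 32 and 43, and the upstream window of Irf8 holds 38. Low counts were not particular to Irf7: the windows of Irf9 hold 9 and 1, and the downstream window of Irf8 holds 8. The stretch upstream of the whole annotated gene is shown here because Irf7 carries the difference between genotypes, with CpGs in capitals (chr7:141266500-141266674, minus strand, RefSeq, GRCm38.p6). It holds 1 CpG. The start used for the window lies inside the annotated gene, so this stretch leaves out that start and the other CpGs of the window. Methylation was not measured in these samples.
Irf7: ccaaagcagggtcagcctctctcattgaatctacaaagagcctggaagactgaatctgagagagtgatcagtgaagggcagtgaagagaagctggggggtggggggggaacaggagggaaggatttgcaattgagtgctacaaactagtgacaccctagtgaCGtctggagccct

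Irf3 and Irf5, the other inducers of interferon genes, overlapped between genotypes. Irf3 (chromosome 7, 44997648 to 45002848), which is present in most cells and waits for activation, was 52.8, 57.7 and 62.1 FPKM in Uhrf1-/- LSK and 66.2, 42.9 and 42.4 FPKM in wild-type LSK. Its log2 fold change was 0.21 with a 95% interval of -0.39 to 0.82. Irf5 (chromosome 6, 29526130 to 29541869), which acts downstream of Toll-like receptors in myeloid cells, was 10.95, 12.5 and 9.26 FPKM in Uhrf1-/- LSK and 15.4, 19.0 and 10.8 FPKM in wild-type LSK. It was lower in 3 of 3 pairs, but the ranges overlapped through wild-type replicate 3, and the interval of its log2 fold change of -0.41 ran from -1.03 to 0.21. Irf5 shares 411 exon bases with Tnpo3 on the opposite strand, and without a stated strand setting part of its reads may be those of Tnpo3. The same holds over fewer bases for Irf3, which shares 88 with Bcl2l12, and for Irf1, which shares 135 with Gm17334.

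Irf9 and Stat2 encode the DNA-binding and STAT subunits of ISGF3. Irf9 (chromosome 14, 55603985 to 55610030) was 28.5, 26.2 and 25.7 FPKM in Uhrf1-/- LSK and 13.9, 22.7 and 26.7 FPKM in wild-type LSK. The Uhrf1-/- libraries were alike, and wild-type replicate 1 was the low one. The log2 difference between genotypes was thus 0.99 in pair 1, 0.20 in pair 2 and -0.05 in pair 3, and the log2 fold change was 0.38 with a 95% interval of -0.25 to 1.01. Stat2 (chromosome 10, 128270498 to 128292853) was the least abundant of the 9 in each group, at 3.87, 3.82 and 6.53 FPKM in Uhrf1-/- LSK and 4.32, 3.21 and 4.97 FPKM in wild-type LSK. Replicate 3 was the highest in both genotypes. The log2 fold change of Stat2 was 0.13 with a 95% interval of -0.50 to 0.77, and its sign turned without wild-type replicate 2 (-0.0073) or Uhrf1-/- replicate 3 (-0.079).

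Irf1, the activator, and Irf2, its competitor, also overlapped. Irf1 (chromosome 11, 53770014 to 53778374) was 23.6, 28.3 and 26.1 FPKM in Uhrf1-/- LSK and 24.5, 41.1 and 33.5 FPKM in wild-type LSK. Irf2 (chromosome 8, 46739745 to 46847458) was 14.9, 13.6 and 18.7 FPKM in Uhrf1-/- LSK and 16.9, 24.0 and 23.4 FPKM in wild-type LSK. Both were lower in 3 of 3 pairs, with log2 fold changes of -0.31 (95% interval -0.90 to 0.29) and -0.42 (-1.01 to 0.17) and adjusted limma p-values of 0.942 each. The ratio of Irf1 to Irf2 averaged 1.69 ± 0.36 in Uhrf1-/- and 1.53 ± 0.156 in wild-type LSK (SD, n = 3 each, two-sided exact permutation p = 0.7), and it was 0.602 in the LK library.

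**Figure D2:**
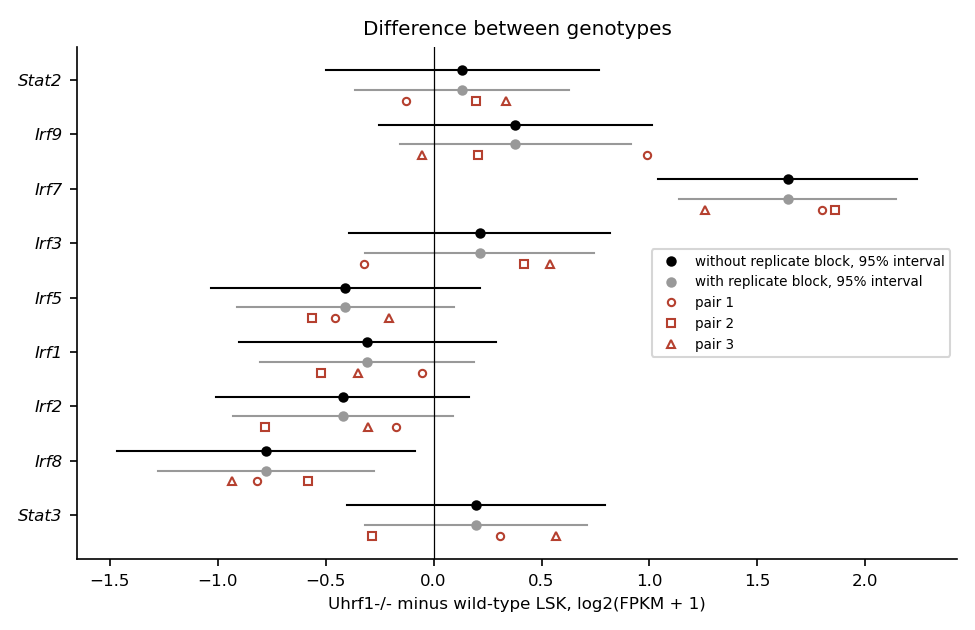
Difference of each factor between Uhrf1-/- and wild-type LSK on the log2(FPKM + 1) scale, with 95% intervals of the limma fit without (black) and with (grey) the replicate block, and open symbols for each pair of same-numbered libraries. Irf7 is at 1.64 and Irf8 at -0.78, and the intervals of the other 7 span 0 in both fits.

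Irf8 was lower in Uhrf1-/- LSK in 3 of 3 pairs. Irf8 (chromosome 8, 120736358 to 120756694) was 6.44, 8.85 and 11.3 FPKM in Uhrf1-/- LSK, 12.1, 13.7 and 22.4 FPKM in wild-type LSK and 18.005 FPKM in the LK library. The genotypes did not overlap, which makes every pair lower, and replicate 3 was the highest in both. Ranges without overlap were seen for 1 member in each direction, Irf7 and Irf8, against 4.61% of all genes tested that were higher and 6.16% that were lower in Uhrf1-/- cells. The log2 fold change of Irf8 was -0.78 (SE 0.31). It did not pass in either fit (limma adjusted p = 0.779, with the replicate block 0.126).

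Of 13 listed genes that work beside Irf8 in monocyte and dendritic cell development, 8 were tested. Of these, 1 was called lower without the block and 3 with it, against 0.0566% and 0.83% of all genes. A log2 fold change below 0 was found for 7, as for 53.9% of all genes tested, and the median was -1.13, beside -0.03 over all genes. Csf1r, the macrophage colony-stimulating factor receptor, fell to 3.33, 2.55 and 2.55 FPKM in Uhrf1-/- LSK, against 9.51, 14.0 and 10.05 FPKM in wild-type LSK (limma adjusted p = 0.043). With the replicate block Flt3, the receptor of early dendritic and lymphoid progenitors, and Ctss, a lysosomal protease of antigen-presenting cells, were called lower too (adjusted p = 0.000442 and 0.0116). Of the 8, 1 was still called with the block once pair 2 was left out, Flt3, against 0.0754% of all genes called lower. Flt3 was 29.1, 28.1 and 10.6 FPKM in Uhrf1-/- LSK and 101.9, 69.5 and 49.8 FPKM in wild-type LSK. Spi1, which encodes the IRF8 partner PU.1, was 323.7, 286.8 and 111.5 FPKM in Uhrf1-/- LSK and 384.6, 250.4 and 81.9 FPKM in wild-type LSK, with the low values in replicate 3.

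Markers of other cell types were read beside these genes. The 9 measured macrophage markers summed to 36.0, 38.0 and 2.51 FPKM in Uhrf1-/- LSK, to 149.4, 73.2 and 1.12 FPKM in wild-type LSK and to 1.28 FPKM in the LK library. The sum was lower in Uhrf1-/- LSK in pairs 1 and 2 and higher in pair 3. C1qa, C1qb and C1qc, which made up most of it in replicates 1 and 2, did not pass in either fit. The other 6 markers, Cd163, Mertk and Timd4 among them, were under 2 FPKM in every library. The log2 difference of Irf7 between genotypes was 1.80, 1.86 and 1.26 in pairs 1, 2 and 3. That of Irf8 was -0.82, -0.58 and -0.93. For plasmacytoid dendritic cells, which hold much Irf7 and Irf8, Klk1 was listed at 0 in all 7 libraries, and Siglech was at most 0.0532 FPKM in Uhrf1-/- LSK and at most 0.472 FPKM in wild-type LSK. The 6 plasmacytoid markers together summed to 450.6 to 623.9 FPKM in Uhrf1-/- LSK, 150.9 to 340.0 FPKM in wild-type LSK and 166.6 FPKM in the LK library. Most of that sum was Bst2, which is also interferon-stimulated. The 5 others summed to 10.1, 11.2 and 7.95 FPKM in Uhrf1-/- LSK, against 39.5, 15.8 and 45.1 FPKM in wild-type LSK, so without Bst2 the groups stood the other way round. Among them Cox6a2 was 5.10, 6.13 and 0.866 FPKM in Uhrf1-/- LSK and 31.1, 7.47 and 31.7 FPKM in wild-type LSK, and Tcf4 was 4.99, 5.05 and 7.08 FPKM in Uhrf1-/- LSK and 7.82, 7.96 and 12.6 FPKM in wild-type LSK. Both were lower without overlap, and neither passed in limma without or with the block, although Cox6a2 did with the block when pair 2 was left out (adjusted p = 0.043). Monocyte and granulocyte markers summed to 597.9 to 725.8 FPKM in Uhrf1-/- LSK, 758.0 to 939.7 FPKM in wild-type LSK and 2172 FPKM in the LK library, most of it from Mpo in the LSK libraries. S100a8, a granulocyte and monocyte protein gene, was 3.18, 5.22 and 1.11 FPKM in Uhrf1-/- LSK and 68.0, 17.9 and 13.1 FPKM in wild-type LSK. It fell in limma with the block (adjusted p = 0.014, without pair 2 0.026) but did not pass without it (0.230). Its partner S100a9 was also lower without overlap and did not pass. The part of these cells in the results was not tested.

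Stat3 overlapped between genotypes. Stat3 (chromosome 11, 100886806 to 100939594) was 31.4, 27.1 and 43.8 FPKM in Uhrf1-/- LSK and 25.2, 33.2 and 29.3 FPKM in wild-type LSK, with a log2 fold change of 0.20 and a 95% interval of -0.40 to 0.80. Uhrf1-/- replicate 3 was the highest of the 7 libraries. Among 9 tested STAT3 target genes 0 were called in either limma fit, against 0.17% of all genes without the block and 2.06% with it. At an unadjusted p under 0.05 there were 0 without the block and 4 with it, against 5.57% and 12% of all genes. The median log2 fold change was -0.05. Without the block, the lowest unadjusted p-values were those of Bcl3, Il4ra and Pim1. Bcl3, a nuclear NF-kB cofactor, was 19.4, 16.2 and 14.0 FPKM in Uhrf1-/- LSK and 11.2, 13.0 and 8.43 FPKM in wild-type LSK (limma adjusted p = 0.928). Cebpb, another listed target, was 16.2 FPKM in Uhrf1-/- and 16.3 FPKM in wild-type replicate 3 and at least 230.9 FPKM in replicates 1 and 2, as the immediate-early genes were.

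Interferon-stimulated genes, the targets of ISGF3 and IRF7, mostly had higher values in Uhrf1-/- LSK. Of 39 listed genes, chosen with earlier results of these data known, 37 were tested. A positive log2 fold change was found for 36, as for 4894 of all 10608 genes tested. The median was 0.89, beside -0.03 over all genes. Zbp1, a sensor of nucleic acid in Z form, was called higher without the block (limma adjusted p = 0.015), against 0.113% of all genes. With the block 13 genes were called higher, against 1.23% of all genes. Oas3, Mx1, Oasl1 and Rsad2, which encode antiviral effectors, followed Zbp1 in unadjusted p, at 1.55, 1.29, 1.49 and 1.38 on the log2 scale. All 4 passed in limma with the block (adjusted p = 0.000902, 0.00331, 0.00186 and 0.00293). Oasl1, which restrains the translation of Irf7, was 19.6, 20.3 and 16.2 FPKM in Uhrf1-/- LSK and 7.60, 4.61 and 5.98 FPKM in wild-type LSK. The median log2 difference of the list was 1.101, 1.017 and 0.61 in pairs 1, 2 and 3, beside 1.80, 1.86 and 1.26 for Irf7. With pair 2 left out, 1 of the 37, Zbp1, passed in limma with the block, against 0.123% of all genes called higher.

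**Figure D3:**
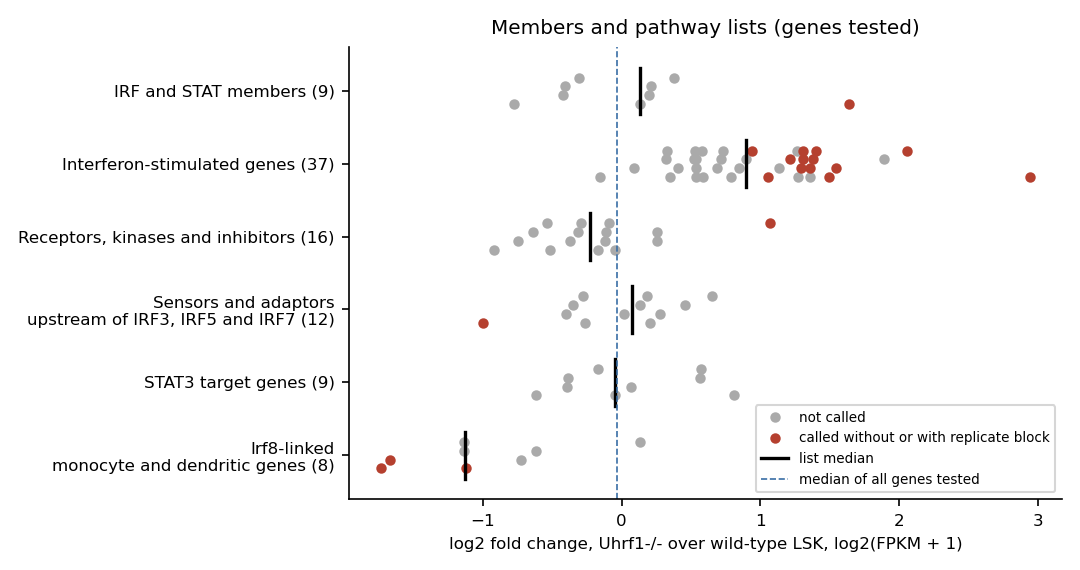
Log2 fold change of Uhrf1-/- over wild-type LSK for the tested genes of the 9 factors and of 5 pathway lists (each point a gene, black bars the list medians). Red points were called at an adjusted p under 0.05 without or with the replicate block: 1 factor, 13 interferon-stimulated genes and at most 3 genes in each of the other lists.

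Upstream of the factors, interferon genes themselves were hardly measured. Of 11 ligand genes 9 were listed at 0 in all 7 libraries, Ifng and Ifna4 among them. Ifnb1 had a value in Uhrf1-/- replicate 2 (0.154 FPKM), and Ifnab had values in Uhrf1-/- replicates 1 and 3 (0.105 and 0.672 FPKM). Of 16 tested receptors, kinases and inhibitors 13 were below 0 on the log2 scale, as were 53.9% of all genes tested. The median was -0.23, beside -0.03 over all genes. Limma without the block called 0, against 0.17% of all genes. At an unadjusted limma p under 0.05 there was 1 without the block, the cytokine receptor subunit gene Il6st, against 5.57% of all genes. With the block there were 6, against 12%. Il6st, Ifnar1 and Ifngr2 were the 3 lower without overlap, against 6.16% of all genes, and 0 were higher so, against 4.61%. The interferon receptor gene Ifnar1 was 2.94, 2.78 and 3.88 FPKM in Uhrf1-/- LSK and 3.98, 4.97 and 6.54 FPKM in wild-type LSK. Ifngr2, another, was 16.8, 16.6 and 15.1 FPKM, against 19.8, 24.3 and 26.9 FPKM. Neither passed in either fit. Il6st was 0.952, 1.05 and 1.37 FPKM in Uhrf1-/- LSK, against 2.02, 1.70 and 3.37 FPKM in wild-type LSK. The receptor genes Ifngr1 (interferon-gamma) and Il10rb (interleukin-10 and type III interferon) came next in unadjusted p without the block (limma adjusted p = 0.90 and 0.928). Ifngr1 was 16.1, 16.9 and 14.5 FPKM in Uhrf1-/- LSK and 15.0, 59.4 and 32.5 FPKM in wild-type LSK, with 1 wild-type library within the Uhrf1-/- range. The inhibitor gene Socs1, named after its values were seen, was the 1 gene called with the block (adjusted p = 0.026). Over all genes 1.23% were called higher with it. Socs1 was 29.4, 32.2 and 3.596 FPKM in Uhrf1-/- LSK and 14.2, 10.6 and 1.85 FPKM in wild-type LSK, low in replicate 3 of both genotypes as the immediate-early genes were, and it did not pass without pair 2 (adjusted p = 0.357).

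Of 12 tested sensors and adaptors that activate IRF3, IRF5 and IRF7, 0 were called without the block, against 0.17% of all genes. At an unadjusted limma p under 0.05 there were 2 without the block, against 5.57% of all genes. With the block 1 was called lower, against 0.83% of all genes. That gene was Tmem173, which encodes the adaptor STING of the cytosolic DNA response. Tmem173 was 27.5, 30.2 and 19.9 FPKM in Uhrf1-/- LSK and 46.7, 59.9 and 50.1 FPKM in wild-type LSK, without overlap (adjusted p = 0.244, with the block 0.029, without pair 2 0.224). The LK library had 17.1 FPKM. Ifih1, which encodes the double-stranded RNA sensor MDA5, was 3.21, 2.99 and 3.42 FPKM in Uhrf1-/- LSK and 1.498, 1.28 and 2.38 FPKM in wild-type LSK, without overlap, and did not pass (adjusted p = 0.748, with the block 0.208). Mb21d1, which encodes the DNA sensor cGAS, overlapped between genotypes (adjusted p = 0.942).

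The LK library had less of most members than the wild-type LSK libraries. It lay below all 3 of them for 8 of the 9 members, against 31.1% of all genes tested, and within their range for Irf8. The 8 were also below on the deposited count column scaled to library size, where the share of all genes was 37.9%. With 1 LK library there is no replicate check. Irf7, Irf1 and Irf5 were at 0.173, 0.251 and 0.312 times the wild-type LSK mean, and these 3 of 9 stood at 0.5 times or lower, as did 19.3% of all genes. Irf3, Stat2, Irf2, Stat3 and Irf9 were at 0.764, 0.643, 0.642, 0.611 and 0.584 times that mean, and Irf8 at 1.12 times. In FPKM the LK library held 38.6 of Irf3, 17.8 of Stat3, 13.8 of Irf2, 12.3 of Irf9, 8.28 of Irf1, 4.70 of Irf5 and 2.68 of Stat2.

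**Figure D4:**
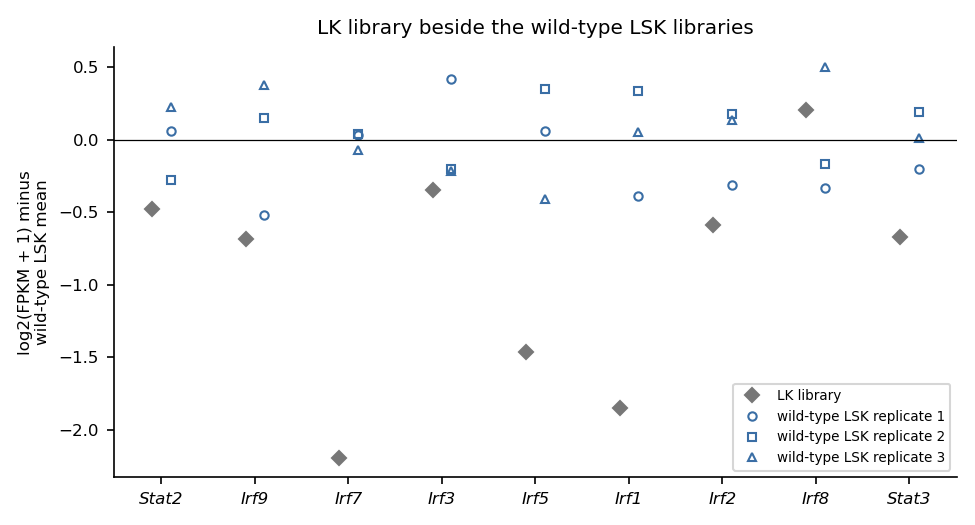
Level of each factor in the LK library (grey diamonds) and in each wild-type LSK library (open blue symbols), as log2(FPKM + 1) minus the wild-type LSK mean. The LK library lies lowest against that mean for Irf7 (-2.19), Irf1 (-1.84) and Irf5 (-1.46), and between the LSK libraries for Irf8 (0.20).

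The order of the 9 levels thus differed between the cell groups. In Uhrf1-/- LSK it ran Irf3, Irf7, Stat3, Irf9, Irf1, Irf2, Irf5, Irf8, Stat2, and neighbours overlapped except Irf1 above Irf2 and Irf2 above Irf5. In wild-type LSK it ran Irf3, Irf1, Stat3, Irf2, Irf9, Irf7, Irf8, Irf5, Stat2, where Irf3 above Irf1, Stat3 above Irf2 and Irf5 above Stat2 did not overlap. In the LK library Irf3 was again first, Irf8 was second and Irf7 was eighth. Replicate 3 lay outside replicates 1 and 2 in the same direction in both genotypes for 4 members, lower for Irf5 and Irf7 and higher for Irf8 and Stat2, against 42.9% of all genes tested.

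The start windows of 4 members hold matches to the elements that these factors bind. The response element core (GAAA, any 2 bases, GAAA), searched on both strands, is in 3.44% of all windows of this length, and the gamma-activated site TTCNNNGAA, bound by STAT dimers and the same on both strands, is in 8.30%. A gene can have several windows, so a share by gene is unlike these shares by window, and it was not taken over all genes. Counted by gene, 14 of 28 interferon-stimulated genes with a window hold the core. Among the members it is in the windows of Irf2 and Stat2, and the gamma-activated site is in those of Irf1, Irf2 and, with 2 matches, Irf8. They are shown with up to 25 bases on either side and the matches in capitals, because they set these members apart from the others. All are on the plus strand of GRCm38.p6 from RefSeq. Irf1 is at chr11:53769899-53769957, Irf8 at chr8:120736162-120736238, Irf2 at chr8:46739495-46739554 and Stat2 at chr10:128270251-128270310.
Irf1: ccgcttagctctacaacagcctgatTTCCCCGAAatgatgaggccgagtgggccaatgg
Irf8: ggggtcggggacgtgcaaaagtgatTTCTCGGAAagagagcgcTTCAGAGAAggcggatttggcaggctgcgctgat
Irf2: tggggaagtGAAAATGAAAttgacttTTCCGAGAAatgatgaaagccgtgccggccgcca
Stat2: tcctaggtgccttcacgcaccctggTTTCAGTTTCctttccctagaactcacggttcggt

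The matches begin 90 bases upstream of the start in Irf1, 171 and 153 in Irf8, 241 and 224 in Irf2 and 222 in Stat2. In Stat2 the core reads on the opposite strand. Irf3, Irf5, Irf7, Irf9 and Stat3 have neither pattern in their windows, which says only that these letters do not stand there. Of the 4 genes with a match, Irf8 was the 1 without overlap between genotypes.

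**Figure D5:**
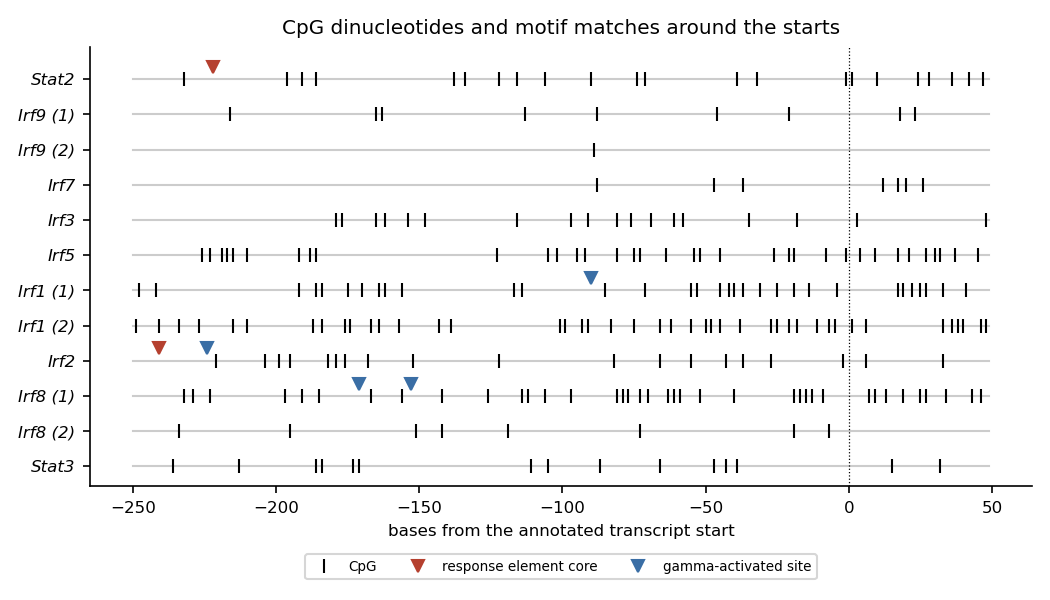
Positions of CpG dinucleotides (ticks) and of matches to the response element core (red) and the gamma-activated site (blue) from 250 bases before to 50 bases after each annotated start of the 9 genes. The Irf7 window holds 7 CpGs and neither motif, and the 2 windows of Irf1 hold 32 and 43 CpGs.

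By the pattern over the 7 libraries, the genes most like Irf7 were Lat, H2-K1 and Oasl1 (Pearson r = 0.99 each, over log2 values), those most like Irf8 were Hs2st1, Snx18 and Klhl20 (0.99, 0.98 and 0.97), and those most like Irf9 were Parp9, Sp100 and Trafd1 (0.99, 0.98 and 0.97). The libraries form groups by genotype, cell type and replicate, and with so few of them r exceeded 0.9 for 119, 49 and 21 genes. H2-K1, a class I histocompatibility gene, was 357.9, 331.6 and 222.7 FPKM in Uhrf1-/- LSK, 181.0, 162.1 and 150.2 FPKM in wild-type LSK and 64.7 FPKM in the LK library. Parp9, an interferon-induced ADP-ribosyltransferase gene, followed Irf9 in its low wild-type replicate 1, at 9.45, 8.45 and 7.78 FPKM in Uhrf1-/- LSK and 4.57, 7.35 and 8.01 FPKM in wild-type LSK.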

How the data were processed

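The deposited table gives 2 values per gene and library. FPKM is as deposited by the authors, and the count column is a scaled count signal that, per the file headers, is a count but is not whole, which no count model takes. The submitters' processing notes name TopHat2 2.0.9, Cufflinks 2.1.1 and mm10, and give no roles. The sources used here do not give the annotation, strand or scaling. FPKM is a share, so genes that take many reads lower the rest. Between 98.2% and 98.6% of count values under 100 steps lay within 0.02 steps of a whole multiple of 1 step per library, but a check that whole reads can be recovered over the column failed, so no reads are given.

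Groups and replicate numbers come from sample titles. The 10608 genes whose mean over the 6 LSK libraries reached 1 FPKM were tested on log2(FPKM + 1) by limma 3.58.1 (R 4.3.3), two-sided, with trended and robust moderation. Benjamini-Hochberg adjustment ran over all of them. This scale understates changes of low genes. Deviations of same-numbered libraries correlated at 0.349, 0.332 and 0.645, all above 0.1, so numbers were read as pairs and blocked values stand beside the unblocked ones. What a number shares is not labelled, and wild-type replicate 2 with Uhrf1-/- replicate 1 (0.213) and the reverse (0.159) were also above 0.1. That cut therefore cannot tell pairs 1 and 2 from swapped ones. Further exact tests used scipy 1.17.1. Alternatives were another pseudocount, filters, scaling, the count column, moderation, and left-out libraries and pairs.

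Members and gene lists were chosen with earlier results of these data known. Named genes were the 9 members, Uhrf1, up to 5 genes per list that passed in either fit (where fewer than 3 did, the 3 with the lowest p), and for Irf7, Irf8 and Irf9 the 3 with the highest r. Others were named after their values were seen, and some marker genes by role. Coordinates are RefSeq's, matched by Entrez ID on GRCm38, the assembly called mm10.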

Additional observations from a re-analysis of the deposited data

How the results depend on the processing

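The direction of Irf7 held in all 19 alternatives, with log2 fold changes of 1.51 to 1.87 and adjusted p-values of 7.00e-05 to 0.242. One member, Irf7, was called with a minimum mean of 5 FPKM (adjusted p = 0.049), median-of-ratios scaling (0.043), and the replicate block, alone (0.000566), with that scaling (0.000862), on the count column (9.71e-05) or without pair 1 (0.000136) or 3 (7.00e-05). In the other 12 alternatives 0 members were called. Irf8 was lower throughout (-0.95 to -0.52) and never passed. Except for Stat2, every member kept its sign. Stat2 lay between -0.079 (without Uhrf1-/- replicate 3) and 0.24 when 1 library was left out, and was -0.0073 without wild-type replicate 2. The median of the members lay between -0.079 and 0.24, and was 0.013 in the blocked fit without pair 3. With a minimum of 5 FPKM Stat2 was not tested, so the median of 9 has no value there.

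Over all genes, 12 were higher and 6 lower. The replicate block gave 131 and 88, with median-of-ratios scaling 126 and 76, on the count column 111 and 98, without pair 1 338 and 318, without pair 2 13 and 8, and without pair 3 117 and 84. Without a filter limma called 0 and 0 (967 at an unadjusted p under 0.05). Fewer were lower with a minimum of 5 FPKM (2) and without trend or robust moderation (1), and more on the count column (11). Leaving out 1 library gave 0 to 3 higher and 0 to 1 lower, and 0 in all without wild-type replicate 1 or 2 (limma, 1499 and 466 at an unadjusted p under 0.05). Interferon-stimulated genes called higher numbered 1, and 0 without a filter, 4 on the count column, 13 with the block, with or without median-of-ratios scaling, 16 with the block on the count column, 12, 1 and 15 with the block without pair 1, 2 or 3, and 0 to 1 with 1 library left out. The causes were not tested. Exon reads and strand limit Irf5 and, over fewer shared bases, Irf1 and Irf3. The single LK library limits every comparison with it.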

Other observations

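Relatives of the 9 factors did not pass between genotypes. Of 6 listed relatives (Stat5a, Stat5b, Stat6, Irf2bp1, Irf2bp2 and Irf2bpl), limma called 0 in either fit, and 0 reached an unadjusted p under 0.05. Over all genes limma called 0.17% without and 2.06% with the block, and 5.57% and 12% reached that unadjusted p. The median of the relatives' log2 values was -0.09. Stat5a, which carries erythropoietin and thrombopoietin signals, was 16.0, 15.2 and 19.2 FPKM in Uhrf1-/- LSK, 6.63, 17.0 and 13.6 FPKM in wild-type LSK and 17.1 FPKM in the LK library. Irf2bp1, a cofactor of IRF2, was 57.0, 42.9 and 42.7 FPKM in Uhrf1-/- LSK and 42.0, 44.0 and 17.7 FPKM in wild-type LSK, with wild-type replicate 3 the low one. Stat6, the interleukin-4 signal carrier, was 10.7, 11.1 and 16.5 FPKM in Uhrf1-/- LSK and 12.6, 20.7 and 17.4 FPKM in wild-type LSK.

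Markers of hepatoblasts, non-blood cells of the fetal liver, summed to 3.36 to 6.65 FPKM in Uhrf1-/- LSK, 2.66 to 5.95 FPKM in wild-type LSK and 10.5 FPKM in the LK library. Erythroid markers summed to 54.0 to 83.2 FPKM in Uhrf1-/- LSK, 8.54 to 115.9 FPKM in wild-type LSK and 1058 FPKM in the LK library. Hba-a1, at 79.5 FPKM in wild-type replicate 1, set the upper end of the wild-type range. Epor, the erythropoietin receptor gene, was 15.3, 14.7 and 14.7 FPKM in Uhrf1-/- LSK and 8.89, 5.22 and 1.38 FPKM in wild-type LSK, without overlap. It rose in limma with the block (adjusted p = 0.027) but did not pass without it (0.325) or without pair 2 (0.337). Klf1, an erythroid transcription factor gene, was 34.3, 38.9 and 33.6 FPKM in Uhrf1-/- LSK and 27.1, 20.1 and 2.25 FPKM in wild-type LSK, without overlap, and did not pass in either fit. B and T cell markers summed to 78.6 to 101.9 FPKM in Uhrf1-/- LSK, 68.3 to 124.4 FPKM in wild-type LSK and 37.8 FPKM in the LK library, most of it from Cd79b. Of the 3 tested, 1 was lower without overlap, Lck, against 6.16% of all genes. Lck was 5.61, 5.56 and 6.16 FPKM in Uhrf1-/- LSK and 7.70, 10.2 and 13.1 FPKM in wild-type LSK. It did not pass (limma adjusted p = 0.725, with the block 0.177).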
